A study of Mus musculus with 8 samples.

Results

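Cholesterol synthesis and its regulator SREBP2 were followed through 8 genes of mouse small intestinal crypts: Srebf2, Insig1, Hmgcs1, Idi1, Fdps, Fdft1, Sqle and Lss. The 8 were taken by gene symbol from the 55880 genes of the deposited count table, and all 8 were among the 14897 genes that passed the expression filter. Crypts are the pockets of the intestinal epithelium that hold its stem cells and Paneth cells. RNA was sequenced from 8 libraries of C57BL/6N mice, 4 labelled wild type (WT) and 4 labelled miR-29ab1-/- (called here the labelled knockout, KO), all before irradiation. The labels give no age, sex, litter, day or batch, nor any cell type or promoter that limits the deletion. The libraries are taken as 1 mouse each from the titles alone, so the p-values measure the spread between these libraries.

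SREBP2, the product of Srebf2, is a transcription factor made as a membrane protein of the endoplasmic reticulum. When sterols are scarce, the escort protein SCAP carries it to the Golgi, where proteases free the part that enters the nucleus and switches on the genes of cholesterol synthesis. When sterols are plentiful, INSIG proteins hold SCAP back. The enzymes build isoprenoid units from acetyl-CoA by way of mevalonate, join them into farnesyl diphosphate and squalene, and close squalene into lanosterol, the first sterol. The small intestine is known for taking up cholesterol from food and for making its own. These libraries measured RNA, not the processing of the SREBP2 protein.

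The microRNAs named in the genotype set the sequences searched for in the 8 genes, so they are shown first, with the seed (bases 2 to 8) in capitals. The mature sequences are from RefSeq (GRCm38.p6). The labelled deletion covers Mir29a and Mir29b-1, on chromosome 6, while Mir29b-2 and Mir29c lie on chromosome 1.
miR-29a-3p: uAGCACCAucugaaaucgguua
miR-29b-3p: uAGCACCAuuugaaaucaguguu
miR-29c-3p: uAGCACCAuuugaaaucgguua
All of these share the seed AGCACCA, whose match in a transcript reads TGGTGCT. A match to those 7 letters was found in the annotated 3' UTRs of 3 of the 8 genes, Insig1, Hmgcs1 and Fdft1. Of 20661 genes searched, 14.1% held the match. The longer match, with an A after those letters, was found in 0 of the 8 genes and in 3.05% of all genes. The sites, with the match in capitals, are printed from GENCODE M21 (GRCm38).
Insig1 site, chr5:28077176-28077205, plus strand: agtgcccaaaggagggaggttgaTGGTGCT
Hmgcs1 site, chr13:119707559-119707588, plus strand: tagcaagttctctggatgattttTGGTGCT
Fdft1 site, chr14:63146577-63146606, minus strand: aggatgccttgccctcagcagccTGGTGCT
A letter match is a description and not a measured target site. The 3' UTRs searched differed in length, from 55 bases in Fdps and 275 in Sqle to 2411 in Lss, and none of these 3 genes held the match.

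Srebf2 is also the host gene of another microRNA, miR-33, which is known to act on cholesterol export. Mir33 lies within the span of Srebf2 (chr15:82198122-82198190, plus strand, GRCm38) and had 0 counts in every library. Its mature sequence has a different seed.
miR-33-5p: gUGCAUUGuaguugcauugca

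Promoter windows of 250 bases before to 50 after the RefSeq start were found for 5 of the 8 genes (Srebf2, Insig1, Hmgcs1, Idi1 and Lss), with no entry for Sqle, Fdps or Fdft1. They are shown because SREBP2 acts through such letters. The SREBP site TCACCCCAC was present in Hmgcs1 alone of the 5, starting 137 bases before the RefSeq start, and in 0.551% of 32851 promoters. The looser form TCACNCCAC, which includes it, gave the same gene and 1.24% of promoters. The first 8 letters, TCACCCCA, also matched Srebf2, 162 bases before its start, and 1.56% of promoters. That shorter form was chosen after the sequences were seen. CCAAT, the box of NF-Y, was present in 5 of 5, as was the Sp1 box GGGCGG, but these short motifs also lay in 37.4% and 35.7% of all promoters. The E-box CACGTG was present in Insig1 and in 7.15% of promoters. All motifs were searched on both strands. In the runs below, capitals mark the SREBP letters, the NF-Y box on either strand (ATTGG on the opposite strand) and the E-box. Each run is RefSeq sequence on GRCm38.p6 and stops before the first annotated transcript start.
Srebf2 promoter, chr15:82147019-82147180, plus strand: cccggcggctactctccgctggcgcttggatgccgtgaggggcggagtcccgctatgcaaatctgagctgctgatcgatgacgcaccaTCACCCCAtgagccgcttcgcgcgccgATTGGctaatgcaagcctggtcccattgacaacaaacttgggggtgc
Hmgcs1 promoter, chr13:119690101-119690350, plus strand: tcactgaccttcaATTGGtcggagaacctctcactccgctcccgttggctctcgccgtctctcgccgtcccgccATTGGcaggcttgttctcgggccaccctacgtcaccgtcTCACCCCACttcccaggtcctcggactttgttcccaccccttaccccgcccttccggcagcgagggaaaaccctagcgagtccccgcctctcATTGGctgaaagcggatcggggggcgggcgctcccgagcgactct
Insig1 promoter, chr5:28071162-28071362, plus strand: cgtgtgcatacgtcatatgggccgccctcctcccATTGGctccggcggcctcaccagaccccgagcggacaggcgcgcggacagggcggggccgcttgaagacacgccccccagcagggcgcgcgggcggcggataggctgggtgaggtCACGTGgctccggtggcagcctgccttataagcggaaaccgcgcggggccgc
No match says only that these letters were not in the window.

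Total counts ranged from 13879472 to 17368666 per library. At the targeted locus, Mir29b-1 had 2, 5, 7 and 3 counts in labelled knockout 1 to 4 and 0 in every wild-type library. Mir29a had 0 counts in all 8. The few Mir29b-1 counts split the libraries as the labels do, though loss of the whole record would leave none in the labelled knockout. The source of these counts was not tested. Mature microRNAs are not measured by such libraries, and directions below hold for the libraries as labelled. Crypt markers were present in every library, with Lgr5 at 43.4 to 98.4 CPM (counts scaled to TMM library sizes, so that genes are compared between libraries but not with each other), Olfm4 at 840 to 2933 and Lyz1 at 5618 to 15846. Labelled knockout 4 stood apart in sums of marker genes. It had 44786 CPM summed over 9 villus enterocyte markers, against 8731 to 21501 in the other 7 libraries. Over 7 interferon response genes it had 2067 CPM, against 223 to 383. In bulk RNA, fewer cells of a type and less RNA per cell cannot be told apart.

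None of the 8 genes differed between the groups past the threshold. The edgeR quasi-likelihood test, with Benjamini-Hochberg adjustment over all 14897 genes, gave each of them an adjusted p of 0.994, and it called 3 genes in all, 0.0201% of those tested. The 3 were higher in the labelled knockout and 0 were lower, with 278 higher and 124 lower at an unadjusted p under 0.05. DESeq2 called 19 higher and 3 lower and limma-voom 2 and 0, and none of the 8 genes was among them. All 8 log2 fold changes (labelled knockout over wild type) were below 0, as were 48.0% of those of all genes. Their median was -0.32, against 0.011 over all genes tested. At an unadjusted p under 0.05 there was 1 of the 8 lower, Idi1, where 0.832% of all genes were lower at that level. In 0 of the 8 did the CPM of the groups separate, where 0.618% of all genes had every labelled knockout library below every wild-type library.

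Per deposited length of the gene, the 8 genes covered a wide range. Mean FPKM over the 8 libraries, as the authors deposited it, was 27.9 ± 6.56 for Hmgcs1, 26.7 ± 2.43 for Srebf2, 21.8 ± 7.21 for Insig1 and 12.3 ± 2.85 for Fdft1 (SD, n = 8). It was 11.7 ± 2.97 for Sqle, 8.19 ± 2.69 for Idi1, 3.32 ± 0.828 for Lss and 0.727 ± 0.229 for Fdps (SD, n = 8). At the top of this order the means of Hmgcs1 and Srebf2 lay within 1 SD of each other, and the libraries of Insig1, at 13.7 to 32.7, overlapped those of both. Fdft1 and Sqle lay within 1 SD of each other, and the libraries of Idi1 overlapped those of Sqle. By this measure Lss and Fdps stood below the rest, with Fdps lower than Lss in every library. This order depends on the 1 length deposited per gene, which was 10787 bases for Lss, 4208 for Fdps and 3505 for Idi1. Before division by length, Lss had a mean of 36.2 CPM and Idi1 29.0, the reverse of their FPKM order.

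**Figure D1:**
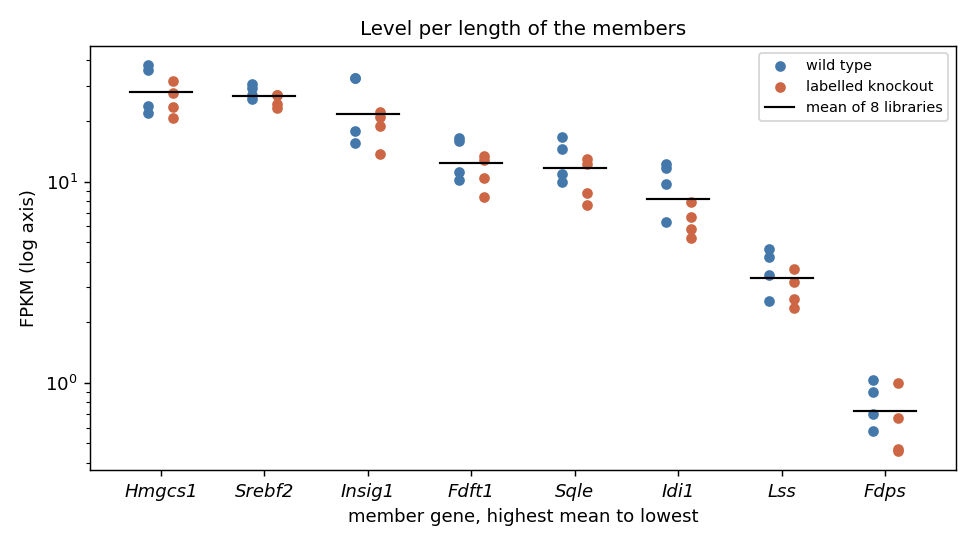
FPKM of the 8 genes on a log axis, 1 point per library (blue for wild type, orange for labelled knockout), with a line at the mean of the 8 libraries. Means run from 27.9 for Hmgcs1 to 0.727 for Fdps, and the 2 groups overlap in every gene.

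The regulators come first. Srebf2 (ENSMUSG00000022463, chr15:82147181-82205379, plus strand) had 214, 195, 187 and 222 CPM in wild type 1 to 4 and 175, 170, 195 and 193 in labelled knockout 1 to 4. Wild type 4 and 1 were highest and labelled knockout 2 and 1 lowest, and labelled knockout 3 lay above wild type 2 and 3, so the groups overlapped. Means were 204 ± 16.4 and 183 ± 12.7 (SD, n = 4 each). The log2 fold change was -0.16 (SE 0.12, adjusted p = 0.994 by edgeR), a fold of 0.896 with a 95% interval of 0.765 to 1.05. These intervals are normal approximations from the SE. Srebf2 was the steadiest of the 8, with a coefficient of variation of 9.12% over all libraries, where counting alone would give 1.83%.

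Insig1 (ENSMUSG00000045294, chr5:28071363-28078662, plus strand), which retains SCAP and is itself a target of SREBP2, had 56.4, 101.5, 48.7 and 101.6 CPM in wild type 1 to 4. In labelled knockout 1 to 4 it had 42.9, 58.9, 68.9 and 64.8 CPM. Its wild-type libraries split into a high pair, 2 and 4, and a low pair, 1 and 3, and 3 of the 4 labelled knockout libraries lay above that low pair. The log2 fold change was -0.39 (SE 0.27, adjusted p = 0.994 by edgeR), a fold of 0.765 (95% interval 0.533 to 1.10). The highest wild-type library was 2.09 times the lowest, a wider gap than that between the group means of 77.1 ± 28.5 and 58.9 ± 11.4 CPM (SD, n = 4 each).

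In the mevalonate stretch, Hmgcs1 (ENSMUSG00000093930, chr13:119690379-119708260, plus strand) makes HMG-CoA, from which mevalonate is formed. It had 103, 166, 111 and 175 CPM in wild type 1 to 4 and 96.2, 109, 128 and 146 in labelled knockout 1 to 4. Again wild type 4 and 2 were highest, and labelled knockout 3 and 4 lay above wild type 1 and 3. Group means were 139 ± 37.0 and 120 ± 21.8 CPM (SD, n = 4 each), with a log2 fold change of -0.21 (SE 0.21, adjusted p = 0.994 by edgeR) and a fold of 0.863 (95% interval 0.65 to 1.15). An antisense record, Gm48342, shares 462 bases with Hmgcs1 and had 1 to 9 counts per library.

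Idi1 (ENSMUSG00000058258, chr13:8885501-8892451, plus strand) converts isopentenyl diphosphate into its reactive isomer. Its CPM were 34.7, 43.1, 22.3 and 41.0 in wild type 1 to 4 and 23.6, 18.7, 28.0 and 20.4 in labelled knockout 1 to 4. Wild type 1, 2 and 4 lay above every labelled knockout library, and wild type 3 lay among them. Means were 35.3 ± 9.34 and 22.7 ± 4.09 CPM (SD, n = 4 each), and the fitted level was 35.7% lower in the labelled knockout (fold 0.643, 95% interval 0.479 to 0.863). The log2 fold change of -0.64 (SE 0.22) had an unadjusted p of 0.0158 and an adjusted p of 0.994 in edgeR. In all, 2.00% of tested genes had a lower log2 fold change. In the authors' deposited table Idi1 stood at -0.63 with a p-value of 0.0106 and an adjusted p of 0.966, as given by their own test. The other 7 genes had log2 fold changes of -0.39 (Insig1) to -0.15 (Srebf2) and adjusted p-values of 1.00 in the authors' deposited table.

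Fdps (ENSMUSG00000059743, chr3:89093588-89101959, minus strand), which makes farnesyl diphosphate, had only 49, 61, 42 and 65 counts in wild type 1 to 4 and 27, 44, 33 and 54 in labelled knockout 1 to 4. On the CPM scale these were 3.00, 3.82, 2.46 and 4.37 against 1.98, 2.86, 1.94 and 4.23. Wild type 4 and labelled knockout 4 were the highest, next to each other. The log2 fold change was -0.31 (SE 0.32, adjusted p = 0.994 by edgeR), a fold of 0.806 whose 95% interval of 0.522 to 1.24 was the widest of the 8. Counting error alone would give a coefficient of variation of 14.6%, against 31.2% observed.

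**Figure D2:**
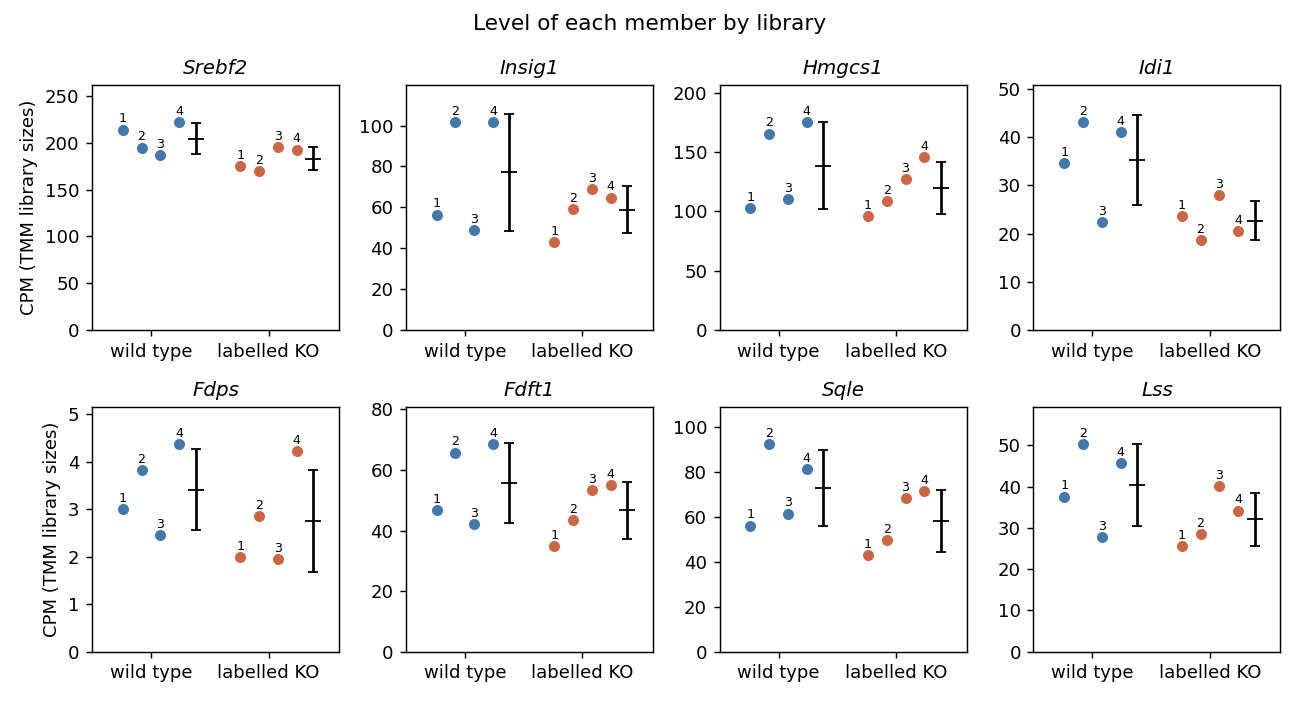
CPM (TMM library sizes) of each of the 8 genes, 1 numbered point per library, with wild type in blue, labelled knockout in orange and black bars for the group mean and SD (n = 4 each). Wild type 2 and 4 sit at the top in most panels, and in Srebf2, which ranges from 170 to 222, the points lie closest together.

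In the sterol branch, Fdft1 (ENSMUSG00000021273, chr14:63145150-63179578, minus strand), squalene synthase, commits farnesyl diphosphate to sterols. It had 46.6, 65.7, 42.2 and 68.5 CPM in wild type 1 to 4 and 34.9, 43.5, 53.2 and 55.0 in labelled knockout 1 to 4. The order matched that of Hmgcs1 at the top, with wild type 4 and 2 first and labelled knockout 4 and 3 next. Means were 55.8 ± 13.3 and 46.7 ± 9.33 CPM (SD, n = 4 each), with a log2 fold change of -0.26 (SE 0.20, adjusted p = 0.994 by edgeR) and a fold of 0.837 (95% interval 0.637 to 1.10). Fdft1 overlaps Ctsb, a gene on the opposite strand with 5250 to 6995 counts per library, by 774 bases. Whether the counting used strand is not stated in the sources used here, so reads from that stretch cannot be assigned with certainty.

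Sqle (ENSMUSG00000022351, chr15:59315077-59331192, plus strand), squalene epoxidase, adds the oxygen needed for ring closure and is a rate-limiting step of this branch. Its CPM were 56.0, 92.4, 61.4 and 81.3 in wild type 1 to 4 and 43.1, 49.5, 68.2 and 71.5 in labelled knockout 1 to 4. Labelled knockout 3 and 4 lay above wild type 1 and 3. Means were 72.8 ± 17.0 and 58.1 ± 13.9 CPM (SD, n = 4 each). The log2 fold change was -0.33 (SE 0.21, adjusted p = 0.994 by edgeR), and the fold was 0.798 (95% interval 0.598 to 1.06). Sqle spanned 2.14-fold from labelled knockout 1 to wild type 2.

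Lss (ENSMUSG00000033105, chr10:76531588-76557138, plus strand), lanosterol synthase, closes the rings. Its CPM were 37.5, 50.3, 27.7 and 45.7 in wild type 1 to 4 and 25.5, 28.4, 40.1 and 34.1 in labelled knockout 1 to 4. Wild type 3 was the second lowest of the 8 libraries, below 3 of the 4 labelled knockout libraries. Means were 40.3 ± 9.94 and 32.0 ± 6.45 CPM (SD, n = 4 each), with a log2 fold change of -0.33 (SE 0.21, adjusted p = 0.994 by edgeR) and a fold of 0.795 (95% interval 0.60 to 1.05).

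The same libraries stood at the ends of the order in gene after gene. Wild type 4 was highest for 5 of the 8 genes and among the top 2 for all 8, and wild type 2 was highest for the other 3 and among the top 2 for 6. Labelled knockout 1 was lowest for 5, labelled knockout 2 for 2 and labelled knockout 3 for 1. Wild type 3 was among the lowest 3 for 6 of the 8 genes. Summed over the 8 genes, wild type 1 to 4 had 551, 717, 502 and 740 CPM and labelled knockout 1 to 4 had 444, 480, 583 and 589. The wild-type sums thus lay both above and among those of the labelled knockout. Leaving out 1 library moved the median log2 fold change of the 8 genes from -0.32 to -0.20 without wild type 2, without wild type 4 or without labelled knockout 1, and to -0.42 without wild type 3. All 8 stayed below 0 each time, and 0 of the 8 were called.

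Across the 8 libraries, Hmgcs1, Sqle, Insig1, Fdft1 and Lss followed each other closely. Their 10 pairs had Pearson r of 0.81 to 0.97 (log2 CPM, n = 8 libraries), in a set chosen after the values were seen. Without the 2 libraries farthest from the median of the gene mean, wild type 4 and labelled knockout 1, their r was 0.69 to 0.94. Wild type 2 stayed in, though its mean standardised level over the 8 genes, 1.13, was near the 1.28 of wild type 4. For Srebf2 with the other 7, r was 0.50 to 0.77, and 0.066 to 0.69 without wild type 4 and labelled knockout 1. Idi1 gave 0.86 with Lss, inside the range of that set, but with Fdps the lowest r of the 28 pairs, 0.38. The median r of the 8 genes with all other tested genes was -0.011. The points of these correlations share library, depth and cell makeup, and the differences between them were not tested.

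Among the genes most like the 8, of 14889 other tested genes, were Mvd (r = 0.96 with the mean of their standardised levels), the long noncoding RNA 2810402E24Rik (0.96), Phf14 (0.95) and Cyp51 (0.94), over 8 libraries. Without wild type 4 and labelled knockout 1 these were 0.93, 0.98, 0.89 and 0.89. Each r was picked as among the highest of many genes over few libraries, so it is high in part by selection. Mvd encodes the enzyme that makes isopentenyl diphosphate, and Cyp51 removes a methyl group from lanosterol. For Srebf2 alone the closest, picked in the same way, were Bahcc1 (r = 0.94), the processed pseudogene Gm19680 (0.92) and Zfp626 (0.92). None of them was on the lists of sterol genes. Without wild type 4 and labelled knockout 2, the libraries farthest out for Srebf2, these were 0.87, 0.80 and 0.89. Mvd had 24.1, 27.7, 16.7 and 28.3 CPM in wild type 1 to 4 and 14.7, 16.8, 22.3 and 21.8 in labelled knockout 1 to 4. Cyp51 had 70.4, 99.9, 62.4 and 99.3 against 55.0, 61.7, 71.7 and 63.0. Both had wild type 2 and 4 highest and labelled knockout 1 lowest.

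**Figure D3:**
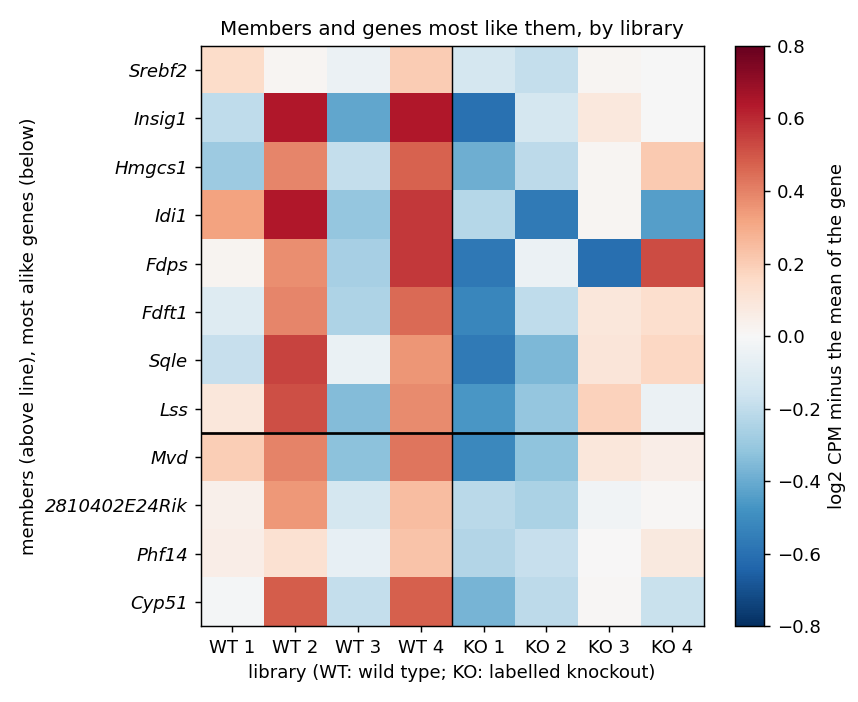
Colour gives log2 CPM minus the mean of the gene over 8 libraries, from blue (below) to red (above), for the 8 genes above the line and 4 of the genes most like them below it. Wild type 2 and 4 are red and labelled knockout 1 is blue in nearly every gene, while Srebf2 stays pale.

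Markers of other cells were set beside this order of libraries. B and plasma cell genes summed to 25.2, 129, 48.8 and 79.6 CPM in wild type 1 to 4 and 32.3, 44.5, 22.1 and 35.9 in labelled knockout 1 to 4, so wild type 2 and 4 were highest here as well. All 5 of those markers had a log2 fold change below 0 (median -0.87). Cycling cell genes summed to 963 to 1373 CPM in wild type and 549 to 1346 in the labelled knockout, with 10 of 10 below 0 (median -0.30) and labelled knockout 4 lowest. T cell markers summed to 148 to 360 against 111 to 232, with 7 of 7 below 0 (median -0.44), and tuft cell markers to 48.6 to 284 against 64.9 to 184, with 4 of 4 below 0 (median -0.48) and wild type 4 highest. Paneth markers summed to 16378 to 21304 against 15194 to 48769, with 0 of 6 below 0 (median 0.48). Villus enterocyte markers had 2 of 9 below 0 (median 0.40). Crypt base stem cell markers summed to 1816 to 3284 against 1074 to 2978, with 2 of 5 below 0 (median 0.0015). None of these markers was at 0 in all libraries. Their part in the levels of the 8 genes was not tested.

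Copies of the genes bear on 2 of the values. Fdps has 4 processed pseudogenes at least 95% identical to it over 200 bases or more. Of these, 2 had counts, 714 in all against 375 on Fdps, or 65.6% of the sum. The one with most counts, Gm3571 (98.9% identical over 1062 bases), had 84, 100, 53 and 111 counts in wild type 1 to 4 and 51, 57, 87 and 47 in labelled knockout 1 to 4. A protein-coding record, Gm43738, is 100% identical to Fdps over 929 bases and had 0 counts in every library. How the counting treated reads shared by both is not stated in the sources used here. The low level of Fdps is therefore uncertain, because reads could be split between the gene and its copies or left uncounted. Idi1 has 2 such processed pseudogenes, Gm13502 and Gm35570, with 529 counts against 3589 on Idi1, or 12.8% of the sum. Fdft1 has 1, Gm6781, with 14 counts in all. With the processed pseudogenes added to their gene, an alternative chosen after the data were seen, none of these genes passed the threshold. The log2 fold change was then -0.34 (SE 0.22) for Fdps, -0.58 (SE 0.19) for Idi1 and -0.26 for Fdft1.

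**Figure D4:**
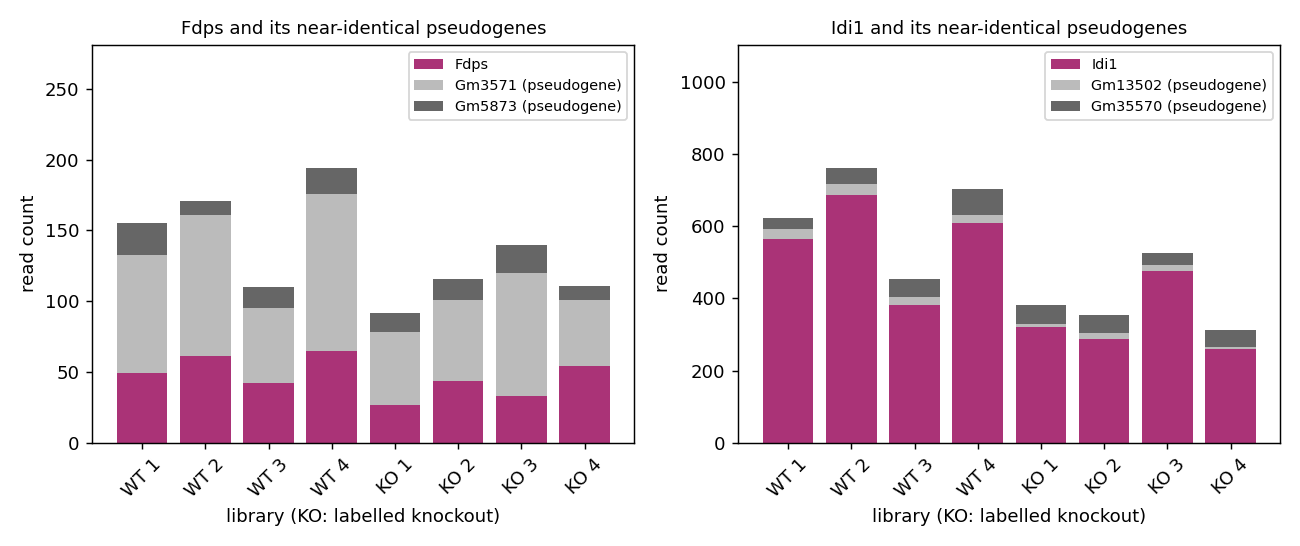
Read counts per library stacked for Fdps (left) and Idi1 (right) with their near-identical processed pseudogenes in grey, for 4 wild-type and 4 labelled knockout libraries. The pseudogenes hold 65.6% of the summed counts for Fdps and 12.8% for Idi1.

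The other genes of the pathway were taken from lists by role. Of 8 mevalonate genes tested, 8 had a log2 fold change below 0 and 0 passed the threshold, with a median of -0.28. The 2 smallest p-values in that list were those of Idi1 and of Acat2, the thiolase that makes acetoacetyl-CoA. Acat2 had 33.0, 38.4, 28.5 and 35.7 CPM in wild type 1 to 4 and 30.9, 25.3, 24.5 and 19.9 in labelled knockout 1 to 4 (log2 fold change -0.43, SE 0.16, unadjusted p = 0.0208, adjusted p = 0.994, edgeR). Only labelled knockout 1 reached into the wild-type range. Without labelled knockout 1 the median of the list was -0.16, and without wild type 1 or labelled knockout 3 there were 7 of 8 below 0.

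Of 12 genes of the sterol branch, 10 were below 0 and 0 passed, with a median of -0.16. Cyp51 averaged 83.0 ± 19.4 and 62.8 ± 6.86 CPM (SD, n = 4 each), a log2 fold change of -0.40 (SE 0.17, unadjusted p = 0.0445, adjusted p = 0.994, edgeR). Nsdhl, a later demethylation enzyme, stood at -0.35 (SE 0.16, unadjusted p = 0.057). Sc5d, a desaturase of the late steps, lay above 0 (0.15), with 163 CPM in labelled knockout 4 and 83.4 to 116 in the other labelled knockout libraries. Without labelled knockout 4, 12 of 12 were below 0 and the median was -0.32, and without wild type 1 the median was -0.25 with 10 below 0. Without wild type 2, wild type 4 or labelled knockout 1 there were 8 of 12 below 0, with medians of -0.14, -0.15 and -0.17. Over both lists, 18 of 20 genes were below 0, and 12 of the 14 that are not among the 8 genes (median -0.15).

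In the control machinery 5 of 7 genes lay above 0. The 2 below 0 were Srebf2 and Insig1, and 0 passed, with a median of 0.030. Srebf1, which encodes the related factor that serves fatty acid synthesis, had 120 ± 5.85 CPM in wild type and 136 ± 19.0 in the labelled knockout (SD, n = 4 each), a log2 fold change of 0.18 (SE 0.13). Scap stood at 0.084, Insig2 at 0.13, and the protease genes Mbtps1 and Mbtps2 at 0.030 and 0.015. The median turned below 0, with 4 of 7 genes below 0, without wild type 3 (-0.027), labelled knockout 1 (-0.0030) or labelled knockout 3 (-0.00092). It was 0.11 without labelled knockout 4, 0.10 without wild type 1 and 0.055 without labelled knockout 2.

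Of 7 SREBP2 targets outside synthesis, 5 were below 0 and 0 passed, with a median of -0.23. The smallest p-values were those of Lpin1, a phosphatidate phosphatase (-0.39, unadjusted p = 0.138), and Mylip, a ubiquitin ligase (0.79, unadjusted p = 0.226). Mylip is known as a gene induced by LXR, so its place in a list of SREBP2 targets is doubtful, and it is 1 of the 2 above 0. The median was -0.095 without wild type 2, -0.11 without wild type 4 or labelled knockout 4, -0.14 without labelled knockout 1 and -0.36 without wild type 3. With 1 library left out, 4 to 6 of the 7 were below 0. Of 9 genes of the branch that uses farnesyl diphosphate for other isoprenoids, 6 were below 0 and 0 passed, with a median of -0.041 (-0.079 without wild type 2 to -0.0058 without labelled knockout 4). Ggps1, which extends farnesyl to geranylgeranyl diphosphate, stood at 0.22 (SE 0.11, unadjusted p = 0.0762) and Pdss1, of ubiquinone synthesis, at -0.21 (unadjusted p = 0.321).

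The list named LXR and sterol export lay on the other side of 0. All 10 were above 0, as were 7741 of the 14897 genes tested, and 0 passed, with a median of 0.36. Abcg8, one of the paired transporters that return sterols to the gut lumen, had 171, 174, 217 and 168 CPM in wild type 1 to 4 and 313, 279, 148 and 355 in labelled knockout 1 to 4. Its log2 fold change was 0.59 (SE 0.25, unadjusted p = 0.0414, adjusted p = 0.994, edgeR), and its partner Abcg5 stood at 0.46 (SE 0.28). Labelled knockout 3 was the lowest library for Abcg8 and Abcg5 and also had the lowest sum of villus enterocyte markers, 8731 CPM. Labelled knockout 4 was highest for both genes and for that sum. Labelled knockout 1 and 2 lay above every wild-type library for Abcg8. Their villus sums, 16297 and 19414 CPM, lay inside the wild-type range of 10387 to 21501. Without labelled knockout 4 the median of the list was 0.057 and 3 of its genes were below 0, and without labelled knockout 3 it was 0.58. It was 0.22 with limma-voom and 0.21 with the replicate block. These export genes are expressed in villus enterocytes, and the part of that cell type in their values was not tested.

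**Figure D5:**
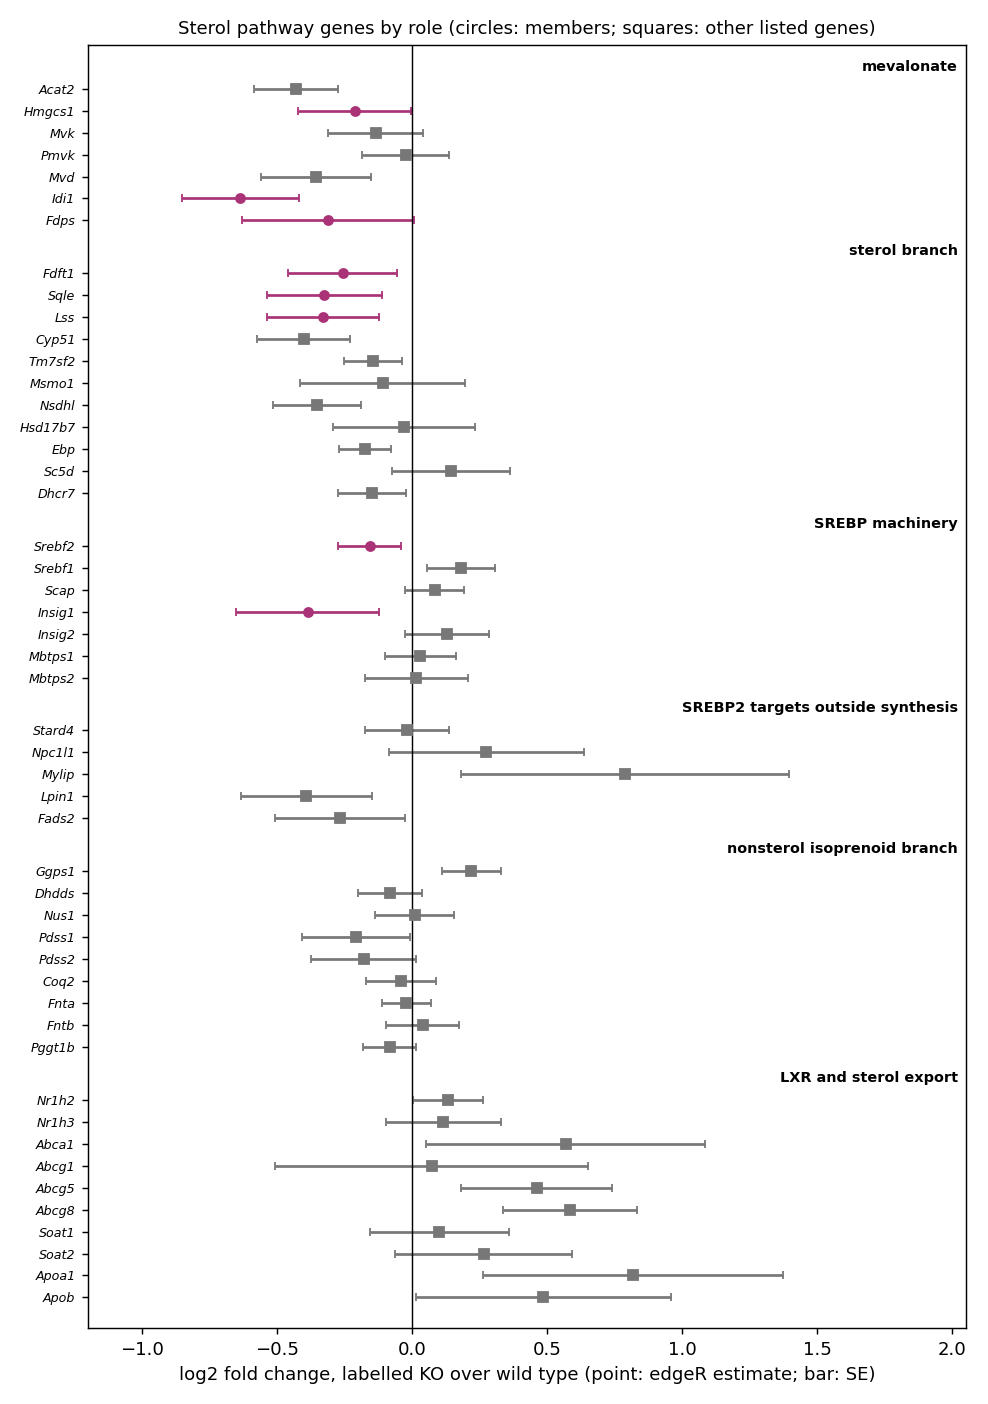
Log2 fold change (labelled knockout over wild type) with its SE from edgeR for 49 sterol genes by role, circles for the 8 genes and squares for the other listed genes, with a vertical line at 0. The mevalonate and sterol branch points lie mostly left of the line and the LXR and sterol export points right of it, and none passed the threshold.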

How the data were processed

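TRIzol was used to extract the RNA and a directional NEBNext kit to make the libraries, per the labels' protocols. The submitters' processing notes name HISAT2 and DESeq2 and give no version for either. No source used here states how the RNA was enriched, which tool counted reads, whether it used strand, or the annotation and build. The deposited table holds whole-number counts per gene, FPKM, group means (a signal scale of counts over size factors) and the authors' log2 fold changes and p-values, per the file headers. Coordinates of 99.5% of 55144 shared gene identifiers were identical to GENCODE M21 (GRCm38), as were those of all 8 genes.

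Counts were tested in edgeR 4.0.16 (R 4.3.3): TMM, filterByExpr, a robust quasi-likelihood fit with no covariate, Benjamini-Hochberg adjustment over all genes and a threshold of 0.05. The SE of a log2 fold change was approximated from its F statistic. CPM use TMM library sizes, and log2 CPM a prior count of 2. The alternatives tried were DESeq2 1.42.0, limma-voom (limma 3.58.1), RLE size factors, 2 other filters (none, and a minimum of 5 CPM in 4 libraries), a replicate block, leaving out each library, and adding copies. Copies were found with BLAST+ 2.17.0, and Python 3.11.15 with pandas 2.3.3 was used for sequences and summaries.

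The 8 genes and the lists were chosen with earlier results of these data known. The genes named are the 8, the 2 of each list with the smallest p where none passed, 4 of the 5 genes most like the mean of the 8, and the 3 most like Srebf2. Sc5d and the further control genes were named after their values were seen. A few genes of the lists are not reported here by name, though list counts and medians include them. Libraries of a group always differed by more than counting noise (chi-square over its degrees of freedom, 32.5 to 230).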

Additional observations from a re-analysis of the deposited data

Results flagged for a closer look

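Each reported gene of the sterol lists, each reported gene most like the 8 or Srebf2, and each marker sum was checked within each group of 4 libraries. The check looked for a highest or lowest library set far from its neighbour. That gap, as a share of the range of the group, had to exceed Dixon's 95% limit for 4 values. Of 136 groups, 8 passed, and chance passes about 1 in 20. None of these concerned the 8 genes themselves.

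Labelled knockout 4 was far above its group 4 times. It had 19.2 CPM of Pmvk, phosphomevalonate kinase, against 15.6 to 16.2 in the others. Its interferon response genes summed to 2067 CPM against 223 to 337, its T cell markers to 232 against 111 to 131, and its red blood cell markers to 55.1 against 8.90 to 14.3. Wild type 1 stood apart 3 times, with 55.9 CPM of Fnta (51.5 to 52.2 in the others), a low 40.2 CPM of Nr1h3 (53.6 to 55.0) and an enteroendocrine sum of 458 CPM (283 to 305). Abcg8 was high in wild type 3, at 217 CPM against 168 to 174.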

How the results depend on the processing

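The log2 fold changes of the 8 genes stayed below 0 and uncalled under all alternatives run, with Fdps failing the filter of at least 5 CPM in 4 libraries. They ranged from -0.20 to -0.12 for Srebf2, -0.33 to -0.084 for Hmgcs1, -0.44 to -0.19 for Sqle, -0.56 to -0.23 for Insig1, -0.80 to -0.53 for Idi1, -0.59 to -0.18 for Fdps, -0.37 to -0.14 for Fdft1 and -0.48 to -0.21 for Lss. Their median was -0.31 to -0.32 over the tools, scalings and filters and -0.42 to -0.20 over left-out libraries. The count of genes called over the whole table depended on the tool: DESeq2 called 19 higher and 3 lower, and edgeR with no filter called 5 higher, against 3 and 0 in edgeR with the filter. Left-out libraries gave 2 to 3 higher and 0 lower. The cause was not tested. Same-numbered libraries of the groups did not deviate together (correlations of -0.39 to 0.075, against -0.19 to 0.32 for different numbers). No pairing by number was seen, but so few libraries cannot exclude one. A fit with the replicate block gave -0.61 for Idi1 (edgeR, unadjusted p = 0.0561) and called 2 genes higher and 0 lower. Fdps had the fewest counts of the 8, at 27 to 65 per library.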
